A study of Mus musculus with 12 samples.

Results

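A set of 9 genes that mark B cells and carry signals from their antigen receptor was followed in mouse lung: Cd79a, Cd79b, Ms4a1, Cd22, Cd72, Blnk, Pax5, Blk and Fcrla. Probes were assigned to these genes through the RefSeq transcript that the array files give for each probe, and 10 of the 41174 probes belonged to the 9 genes, with 2 for Cd22 and 1 for each of the others. Of the 9 genes, 8 could be tested, among 21853 genes and unnamed transcripts on the arrays, because Pax5 failed the filter on dim probes. RNA of whole lung from FVB/N mice was hybridised to 12 Agilent arrays in 1 colour, 3 in each of 4 groups, and the mice were female and 7 weeks old at the start according to the labels. LPS/NNK mice (arrays 2, 3 and 6) received both agents, LPS mice (arrays 1, 5 and 6) received lipopolysaccharide, a bacterial endotoxin (5 ug instilled weekly into the nose over 16 weeks), NNK mice (arrays 2, 3 and 5) received a tobacco nitrosamine carcinogen (3 mg injected into the peritoneum, in the first 4 weeks only), and PBS mice (arrays 1, 2 and 3) received saline buffer weekly for 16 weeks. Lungs were taken 1 week after the last treatment; the labels name no buffer treatment for NNK mice and do not say whether their age at death matched that of the others. Nor do the labels say whether the tissue held tumour.

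Mature B cells carry a membrane antibody that cannot signal by itself. Its signalling partners are CD79a and CD79b, whose tails recruit the kinases Blk, Lyn and Syk, and the adaptor BLNK then links Syk to phospholipase C gamma and Btk. CD22 and CD72 are inhibitory co-receptors that recruit the phosphatase SHP-1, CD20 (Ms4a1) is a membrane protein of mature B cells, FCRLA is an intracellular Fc receptor-like protein of B cells, and Pax5 is the transcription factor that maintains B cell identity and activates several of the other genes. Chronically inflamed lung can form lymphoid aggregates that hold B cells, and Blnk is also made by macrophages.

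The promoters of 3 of these genes are shown because they are a signalling subunit (Cd79a) and the genes with the greatest differences between LPS/NNK and NNK lungs (Cd72 and Blnk). RefSeq sequence was found for the promoters of 6 of the 9 genes, and the 250 bases before the start are printed 5′ to 3′ on the gene's own strand (build GRCm38.p6). For Cd72, Cd22 and Fcrla the window lies inside the span of the gene, so the start used is not the outermost one. Capitals mark matches, on either strand, to the octamer ATTTGCAT, the ETS motif AGGAAGT, the EBF motif CCCNNGGG or the E-box CAGGTG, and no match overlapped another.
Cd79a, chr7:24897247-24897496, plus strand: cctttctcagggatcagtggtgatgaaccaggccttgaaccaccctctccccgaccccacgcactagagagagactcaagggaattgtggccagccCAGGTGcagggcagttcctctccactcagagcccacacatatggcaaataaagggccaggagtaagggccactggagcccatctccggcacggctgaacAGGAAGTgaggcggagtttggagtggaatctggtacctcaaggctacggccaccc
Cd72, chr4:43454627-43454876, minus strand: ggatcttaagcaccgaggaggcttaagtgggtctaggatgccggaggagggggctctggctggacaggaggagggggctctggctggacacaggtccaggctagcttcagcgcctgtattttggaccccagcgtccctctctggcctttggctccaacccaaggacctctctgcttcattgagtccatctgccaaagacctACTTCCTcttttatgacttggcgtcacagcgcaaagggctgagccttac
Blnk, chr19:40994222-40994471, minus strand: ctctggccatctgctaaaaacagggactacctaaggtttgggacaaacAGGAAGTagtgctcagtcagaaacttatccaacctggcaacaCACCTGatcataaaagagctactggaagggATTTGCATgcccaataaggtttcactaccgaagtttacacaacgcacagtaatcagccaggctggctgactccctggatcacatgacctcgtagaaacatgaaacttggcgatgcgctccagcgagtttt
The Cd79a window held an E-box and, 55 to 49 bases before the start, an ETS motif. The Cd72 window held an ETS motif on the opposite strand, 49 to 43 bases before the start. The Blnk window held an ETS motif, an E-box on the opposite strand and the octamer, which lay 130 to 123 bases before the start. Of the other promoters, Cd22 held an E-box and an EBF motif, Fcrla an E-box and Pax5 none of the 4 motifs. Across 32851 promoter windows of this length, 1.60% held the octamer, 7.69% the ETS motif, 11.8% the EBF motif and 17.2% the E-box.

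Levels below are log2 processed signal minus the 75th percentile of the array, so that 0 is the brightness of that percentile, and levels of different probes are not compared. The PBS arrays stood apart from the others: their correlation with treated arrays across genes was 0.88 to 0.93, against 0.94 to 0.99 among treated arrays. PBS 1 and PBS 2 went against their label in lacking Xist (log2 level -8.43 and -8.40) and in showing Y-linked transcripts such as Eif2s3y (1.37 and 1.51), so the calls against PBS are also given without both of them. By slide number the arrays formed 2 runs, slides 1 to 4 with PBS 2 and the LPS arrays, and slides 5 to 8 with all other arrays. PBS 2 was scanned on an earlier day than the rest. LPS/NNK arrays lay at position 4 of their slides, LPS and NNK arrays at position 2 and PBS arrays at position 1, so that position and group cannot be told apart except between LPS and NNK. Lung identity was clear: all 10 lung structural markers were well above background on all 12 arrays, with surfactant gene Sftpc at 8.41 to 10.97.

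In lungs given LPS with NNK, 4 of the 8 tested B cell genes were higher than in lungs given NNK alone, and none was lower. These were the inhibitory co-receptor Cd72 (12.7-fold), the adaptor Blnk (3.81-fold), the signalling subunit Cd79b (2.36-fold) and Ms4a1, which encodes CD20 (2.25-fold). Across all 21853 items, 17.3% were called in this comparison and 7.92% were called higher. The median log2 difference was 1.01 over the 8 genes and -0.06 over all items. Whole-lung RNA cannot tell apart more B cells, more RNA per B cell and RNA from other cells, such as the macrophages that also make Blnk. A call here is an adjusted p under 0.05 from limma with Benjamini-Hochberg adjustment over all items, with 3 arrays per group, and each difference is given with its standard error (SE). An exact permutation test of 3 arrays against 3 cannot give a p below 0.1.

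**Figure D1:**
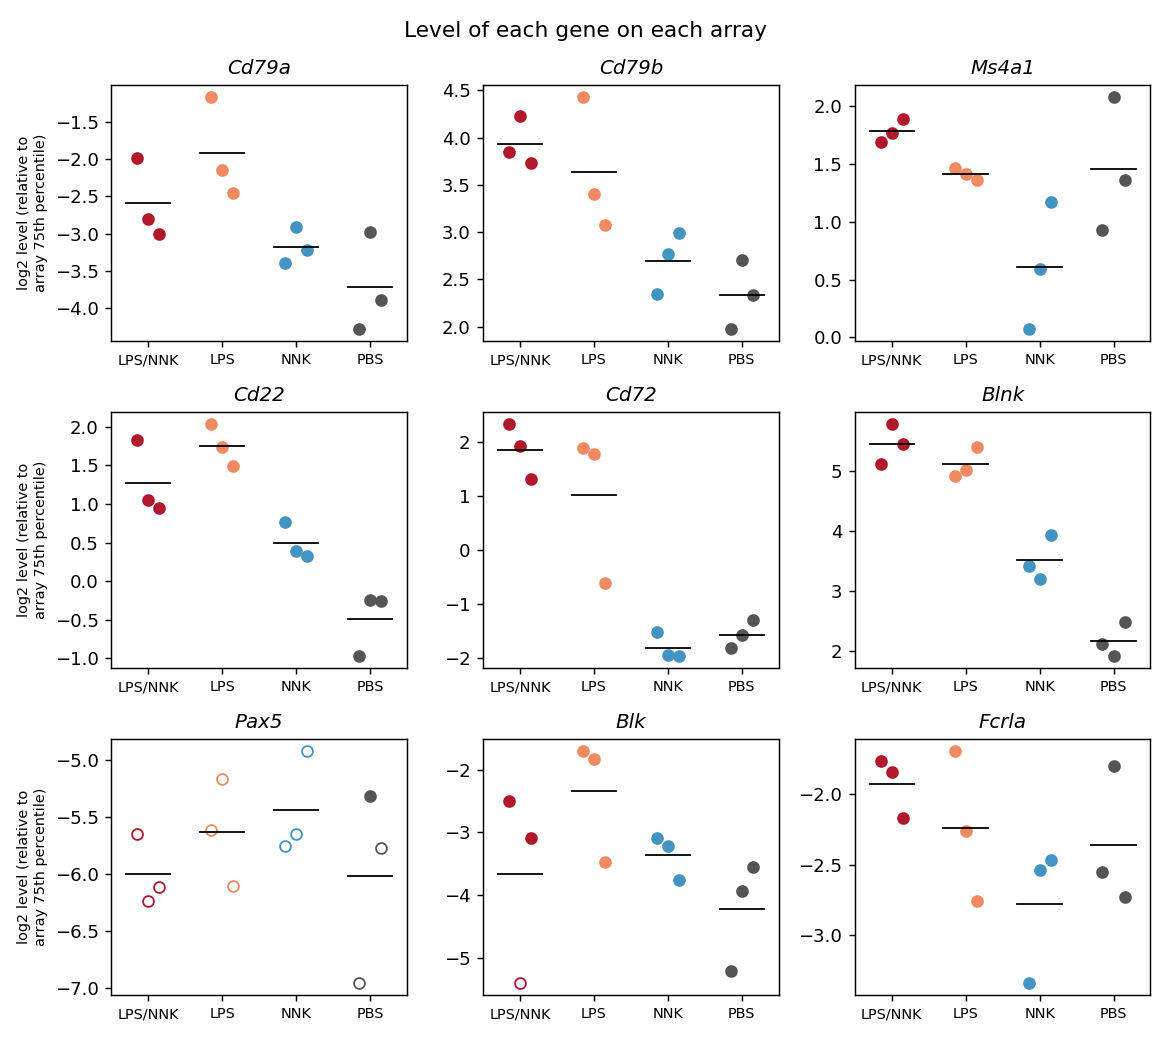
Level of each gene on each array, as log2 processed signal minus the array's 75th percentile (vertical axis, its range set per gene), for the groups LPS/NNK, LPS, NNK and PBS; each point is 1 array, hollow where the probe was not well above background, and the bar is the group mean. Cd72 and Blnk are higher on all 3 LPS/NNK arrays than on all 3 NNK arrays, LPS 6 stands below the other LPS arrays for Cd72, and Pax5 is hollow on every array but PBS 2.

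Cd72 showed the widest separation. Its level was 2.33, 1.91 and 1.31 on the LPS/NNK arrays, 1.89, 1.76 and -0.62 on the LPS arrays, -1.53, -1.95 and -1.97 on the NNK arrays and -1.82, -1.59 and -1.31 on the PBS arrays. All arrays of the groups given LPS lay above all arrays of the other groups, and LPS 6 was the lowest of them. The difference between LPS/NNK and NNK was 3.67 (SE 0.52, adjusted p = 0.000748). It was 4.28 between the arrays that shared slide 6 and 3.89 between those that shared slide 7. The group means ran LPS/NNK, LPS, PBS and NNK from high to low, and the first pair overlapped, as did the last.

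Blnk was the other gene whose difference was called in every alternative tried for LPS/NNK against NNK. Its level was 5.11, 5.79 and 5.45 on the LPS/NNK arrays, 4.93, 5.02 and 5.40 on the LPS arrays, 3.42, 3.21 and 3.93 on the NNK arrays and 2.13, 1.92 and 2.49 on the PBS arrays. The order of the means was LPS/NNK, LPS, NNK and PBS, with an overlap only between LPS/NNK and LPS. The difference between LPS/NNK and NNK was 1.93 (SE 0.28, adjusted p = 0.000753), and it was 1.90 and 1.86 within slides 6 and 7. Across 18 alternatives the log2 difference between LPS/NNK and NNK ranged from 2.54 to 4.23 for Cd72 and from 1.69 to 2.16 for Blnk.

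The paired signalling subunits of the receptor did not pass together. Cd79b had levels of 3.85, 4.23 and 3.73 on the LPS/NNK arrays, 4.44, 3.40 and 3.07 on the LPS arrays, 2.35, 2.76 and 2.99 on the NNK arrays and 1.98, 2.70 and 2.34 on the PBS arrays. Its LPS/NNK arrays all lay above its NNK arrays, with a difference of 1.24 (SE 0.34, adjusted p = 0.026). Cd79a had levels of -1.99, -2.80 and -3.00 on the LPS/NNK arrays, -1.17, -2.15 and -2.46 on the LPS arrays, -3.39, -2.91 and -3.22 on the NNK arrays and -4.27, -2.97 and -3.89 on the PBS arrays. LPS/NNK overlapped NNK for Cd79a, and the difference of 0.58 (SE 0.40, adjusted p = 0.341) was not called. The mean of Cd79a was highest in LPS, followed by LPS/NNK, NNK and PBS, and each neighbouring pair in that order overlapped. For Cd79b the order was LPS/NNK, LPS, NNK and PBS, with overlap between the first pair and between the last.

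Ms4a1 had levels of 1.69, 1.77 and 1.89 on the LPS/NNK arrays, 1.47, 1.41 and 1.36 on the LPS arrays, 0.07, 0.59 and 1.17 on the NNK arrays and 0.93, 2.09 and 1.36 on the PBS arrays. The LPS/NNK arrays were tightly grouped above both the NNK and the LPS arrays, while the PBS arrays spanned all other arrays but NNK 2 and NNK 3. The means ran LPS/NNK, PBS, LPS and NNK, with the last pair apart. The difference between LPS/NNK and NNK was 1.17 (SE 0.32, adjusted p = 0.0246). The calls of Cd79b and Ms4a1 were each lost in 6 of 18 alternatives, among them another background correction (normexp, adjusted p = 0.143 for Cd79b and 0.216 for Ms4a1) and the fits without NNK 2, NNK 3 or LPS/NNK 3, in which 2 of the 8 genes and 7.22% to 8.20% of all items were called. Ms4a1 was also lost without LPS/NNK 6 (adjusted p = 0.0756).

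Cd22 was measured by 2 probes. The brighter one, which stood for the gene, had levels of 1.83, 1.05 and 0.95 on the LPS/NNK arrays, 2.04, 1.74 and 1.49 on the LPS arrays, 0.76, 0.40 and 0.32 on the NNK arrays and -0.97, -0.25 and -0.25 on the PBS arrays. The means ran LPS, LPS/NNK, NNK and PBS, and only the first pair overlapped. Between LPS/NNK and NNK the difference of 0.78 (SE 0.30, adjusted p = 0.0865) was not called, although the arrays did not overlap. The dimmer probe kept the same order of means, at -3.74 ± 0.35 in LPS/NNK, -3.38 ± 0.38 in LPS, -4.37 ± 0.44 in NNK and -5.14 ± 0.57 in PBS (SD, n = 3 each). That probe was not well above background on NNK 3 and LPS/NNK 6, so the NNK and LPS/NNK means include dim values.

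Fcrla had levels of -1.76, -1.84 and -2.17 on the LPS/NNK arrays, -1.69, -2.26 and -2.76 on the LPS arrays, -3.34, -2.54 and -2.46 on the NNK arrays and -2.55, -1.80 and -2.73 on the PBS arrays. LPS/NNK lay above NNK without overlap, but the difference of 0.86 (SE 0.34, adjusted p = 0.0989) was not called. LPS and PBS overlapped every other group. In all, 6 of the 8 genes had LPS/NNK arrays wholly above the NNK arrays, against 15.7% of all items.

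Blk, the Src-family kinase of B cells, had the largest standard error of the 8 genes. Its level was -2.50, -5.41 and -3.09 on the LPS/NNK arrays, -1.70, -1.83 and -3.47 on the LPS arrays, -3.10, -3.22 and -3.76 on the NNK arrays and -5.21, -3.93 and -3.55 on the PBS arrays. The low LPS/NNK 3 value was not well above background. The difference between LPS/NNK and NNK was -0.31 (SE 0.67, adjusted p = 0.788), and it was 0.56 without LPS/NNK 3, also not called.

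Pax5 was well above background only on PBS 2. Its probe read -5.65, -6.24 and -6.12 on the LPS/NNK arrays, -5.62, -5.17 and -6.11 on the LPS arrays, -5.76, -5.65 and -4.92 on the NNK arrays and -6.96, -5.32 and -5.77 on the PBS arrays. All groups overlapped, and these dim values have no reliable order. With the filter dropped, no comparison of Pax5 was called, and the adjusted p between LPS/NNK and NNK was 0.482. These arrays therefore give no measure of whether the factor's transcript moved with the other genes.

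In LPS lungs against NNK lungs Cd72 and Blnk again had the largest differences, with 3 of 8 genes called higher and none lower, where 6.21% of all items were called and 2.73% called higher. Cd72 differed by 2.83 (SE 0.52, adjusted p = 0.00592), Blnk by 1.59 (SE 0.28, adjusted p = 0.00373) and Cd22 by 1.26 (SE 0.30, adjusted p = 0.0235). Differences that were not called were 1.24 for Cd79a, 1.03 for Blk, 0.94 for Cd79b, 0.80 for Ms4a1 and 0.55 for Fcrla, all with the LPS mean higher. The median over the 8 genes was 1.14, against -0.14 over all items. Because the LPS arrays lay on slides 2 to 4 and the NNK arrays on slides 5 to 7, the difference can be separated from the slides only through PBS 2, and none of the 8 genes was called with the run of slides as a block (Cd72 2.85, adjusted p = 0.273, and Blnk 1.98, adjusted p = 0.111). Under that block 0.68% of all items were called. Without LPS 6, the array lowest for Cd72, 5 genes and 9.67% of all items were called, and without LPS 1, LPS 5, NNK 3 or NNK 5, where Cd22 was lost, 2 genes and 2.73% to 4.23% of all items were called. Cd72 was not called with normexp (1.87, adjusted p = 0.128).

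Between LPS/NNK and LPS lungs none of the 8 genes was called (limma, adjusted p of 0.228 or more), none had an unadjusted p under 0.05, and 4.11% of all items were called. The log2 differences ran from -1.34 (SE 0.67) for Blk to 0.84 (SE 0.52) for Cd72, with a median of 0.31 against 0.11 over all items. Only Ms4a1 had LPS/NNK arrays wholly above the LPS arrays, where 12.9% of all items did. The LPS/NNK and LPS arrays lay in different runs of slides, which only the PBS arrays span.

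**Figure D2:**
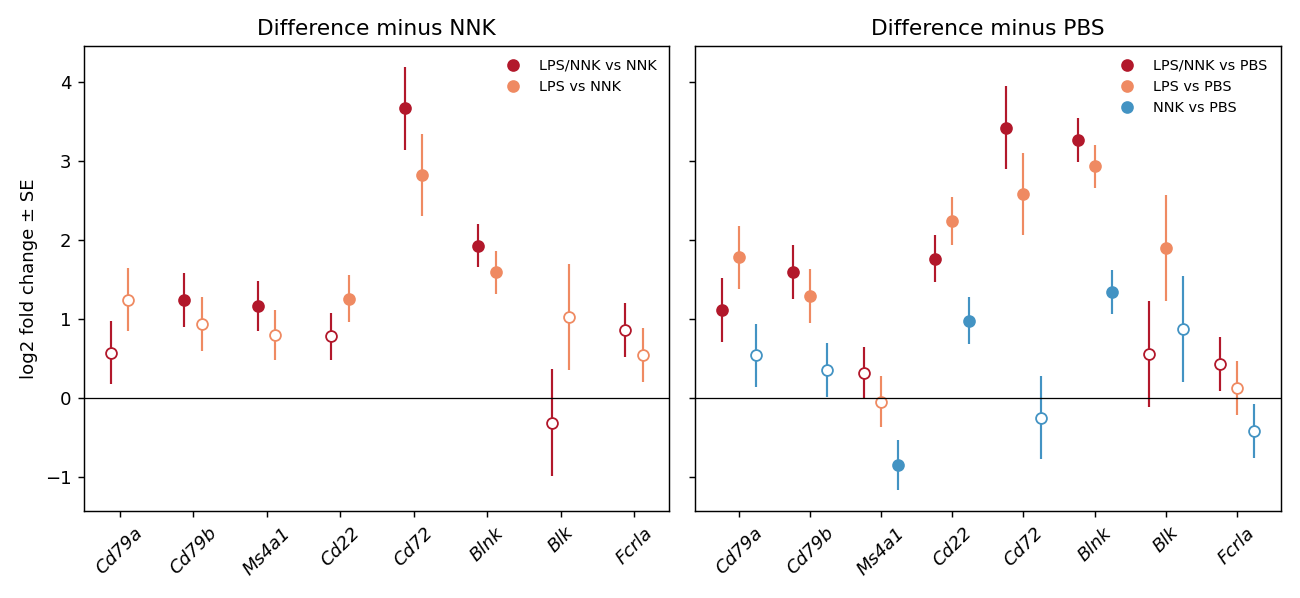
Log2 difference of each of the 8 tested genes with its standard error, against NNK (left panel) and against PBS (right panel), n = 3 arrays per group; filled points were called at an adjusted p under 0.05. Cd72 and Blnk are filled for both LPS/NNK and LPS in both panels, while Ms4a1 is filled for LPS/NNK against NNK and, below 0, for NNK against PBS.

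Against PBS more genes were called, but so were most items on the arrays. The comparisons in this paragraph and the next share the same 3 PBS arrays. In LPS lungs 6 of 8 genes were higher, against 26.1% of all items called higher and 56% called in either direction: Blnk by 2.94 (SE 0.28, adjusted p = 8.23e-06), Cd72 by 2.58 (SE 0.52, adjusted p = 0.00122), Cd22 by 2.24 (SE 0.30, adjusted p = 8.32e-05), Blk by 1.90 (SE 0.67, adjusted p = 0.028), Cd79a by 1.78 (SE 0.40, adjusted p = 0.0023) and Cd79b by 1.30 (SE 0.34, adjusted p = 0.00599). Ms4a1 differed by -0.04 (SE 0.32) and Fcrla by 0.12 (SE 0.34). Without PBS 1 and PBS 2, 4 genes were called, namely Blnk (2.62), Cd22 (2.01), Cd72 (2.32, adjusted p = 0.0495) and Cd79a (1.96), and the lone PBS array was then assumed to vary like the other groups. That fit called 26.0% of all items. With the run of slides as a block 3 genes were called, Blnk, Cd22 and Cd72, and 35.5% of all items. Blk was also lost without PBS 1 (adjusted p = 0.12), LPS 1 (adjusted p = 0.0995) or LPS 5 (adjusted p = 0.0961), and Cd79b with quantile normalization (adjusted p = 0.0598) or normexp (adjusted p = 0.0917).

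In LPS/NNK lungs 5 of 8 genes were higher than in PBS lungs, against 27.9% of all items called higher and 55.1% called. They were Cd72 (3.42, SE 0.52, adjusted p = 0.000152), Blnk (3.27, SE 0.28, adjusted p = 3.32e-06), Cd22 (1.77, SE 0.30, adjusted p = 0.00032), Cd79b (1.60, SE 0.34, adjusted p = 0.00157) and Cd79a (1.12, SE 0.40, adjusted p = 0.0298), whose arrays overlapped. Cd79a was lost without PBS 1 and PBS 2 (adjusted p = 0.0828), where the other 4 and 30.3% of all items were called, and without PBS 1, PBS 3 or LPS/NNK 2 alone (adjusted p = 0.0831 to 0.127). Blk, at 0.56 (SE 0.67), was called without LPS/NNK 3 (1.44, adjusted p = 0.0484). Slide 8 held LPS/NNK 6 and PBS 1, and PBS 1 is one of the arrays that went against their label. The log2 difference between these arrays was 3.32 for Blnk, 3.13 for Cd72, 2.11 for Blk, 1.92 for Cd22, 1.75 for Cd79b, 1.28 for Cd79a, 0.96 for Ms4a1 and 0.38 for Fcrla, and no slide held an LPS/NNK array with PBS 3.

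NNK alone against PBS gave 2 higher genes and 1 lower gene, where 51.5% of all items were called, 27.8% higher and 23.7% lower. Blnk was higher by 1.34 (SE 0.28, adjusted p = 0.00175) and Cd22 by 0.98 (SE 0.30, adjusted p = 0.0151), while Ms4a1 differed by -0.85 (SE 0.32, adjusted p = 0.0395) with overlapping arrays. Cd72 differed by -0.25 (SE 0.52) and was not called. None of the 8 genes was called without PBS 1 and PBS 2, when the differences were 1.03 for Blnk (adjusted p = 0.0932), 0.74 for Cd22 (adjusted p = 0.218) and -0.75 for Ms4a1 (adjusted p = 0.203). That fit called 19.6% of all items. Without NNK 2, 1 gene and 39.7% of all items were called, since Cd22 (adjusted p = 0.0635) and Ms4a1 (adjusted p = 0.178) were lost. Ms4a1 was also lost without PBS 2, PBS 3 or NNK 3 (adjusted p = 0.0651 to 0.188) and Cd22 without PBS 1 (adjusted p = 0.0761).

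The interaction is the difference of LPS/NNK from NNK minus the difference of LPS from PBS. Since the labels name no buffer treatment for NNK mice, the first pair may differ in instillation as well as in LPS. The interaction was called for 2 of 8 genes (25%), where 38.7% of all items were called, 20.1% positive and 18.6% negative. Ms4a1 had a positive interaction of 1.21 (SE 0.45, adjusted p = 0.0471): LPS/NNK exceeded NNK by 1.17, whereas LPS differed from PBS by -0.04. Cd22 had a negative one of -1.46 (SE 0.42, adjusted p = 0.0169), with 0.78 for LPS/NNK over NNK and 2.24 for LPS over PBS. Neither was called without PBS 1 and PBS 2 (adjusted p = 0.143 for Ms4a1 and 0.125 for Cd22) or with the normexp correction, which called 12.0% and 0.32% of all items. Without LPS/NNK 2, 4 genes and 45.6% of all items were called, and without LPS 1, LPS 5, NNK 2, NNK 3 or LPS/NNK 6, 1 gene and 28.5% to 37.5% of all items.

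Other genes of the receptor pathway are given for LPS/NNK against NNK, where 17.3% of all items were called and 7.92% called higher. Those shares stand beside the count of each gene list that follows. Of 23 tested co-receptor and signalling genes, 5 were higher in LPS/NNK than in NNK and none lower, with a median log2 difference of 0.66. Among them were Pik3cd, a catalytic subunit of phosphoinositide 3-kinase (1.41, SE 0.24), Ptprc, the pan-leukocyte phosphatase CD45 (1.52, SE 0.31), and Plcg2, phospholipase C gamma 2 (0.90, SE 0.24). The proximal kinases were not called, at 0.63 (SE 0.28) for Btk, 0.49 (SE 0.22) for Lyn and -0.36 (SE 0.36) for Syk. Those 3 genes were picked out from the list for their place in the pathway after their values were seen.

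Among inhibitory receptors and phosphatases, 7 of 14 were higher and none lower, with a median of 0.93. Cd5, carried by T cells and B-1 cells, differed by 2.64 (SE 0.33), the phosphatase Ptpn22 by 2.74 (SE 0.35), and the receptors Lair1 by 2.25 (SE 0.30) and Pirb by 1.70 (SE 0.33). These receptors are also carried by T cells or myeloid cells. Of 13 B cell transcription factors 2 were called, both higher, where 17.3% of all items were called and 7.92% called higher. They were Pou2af1, the coactivator that binds with the octamer factors (1.95, SE 0.27, adjusted p = 0.000632), and Irf8 (1.55, SE 0.24), which macrophages and dendritic cells also express. The median over the 13 factors was 0.29, and Ebf1, which acts with Pax5 in B cell commitment, differed by -0.68 (SE 0.31) and Foxo1 by -0.74 (SE 0.25), neither of them called.

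Of 16 other B cell surface and marker genes 6 were higher and none lower, with a median of 1.08. Among the 6 was Cd180, at least 1.21-fold, which was well above background on only 1 LPS/NNK array and no NNK array. Tnfrsf13c, the receptor for the survival factor BAFF, differed by 2.0 (SE 0.30), Ly86, the partner of the receptor RP105, by 1.69 (SE 0.22), Cd83, a marker of activated B cells and dendritic cells, by 1.39 (SE 0.28), and the adaptor Stap1 by 1.38 (SE 0.27). None of 7 early precursor and recombination genes and none of 4 germinal centre genes was called in LPS/NNK against NNK. At an unadjusted p under 0.05 there were 2 of the 7, Dntt (0.80, SE 0.29) and Cd93 (-0.92, SE 0.30), and 1 of the 4, Gcsam, which was well above background on 1 LPS/NNK array and no NNK array.

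**Figure D3:**
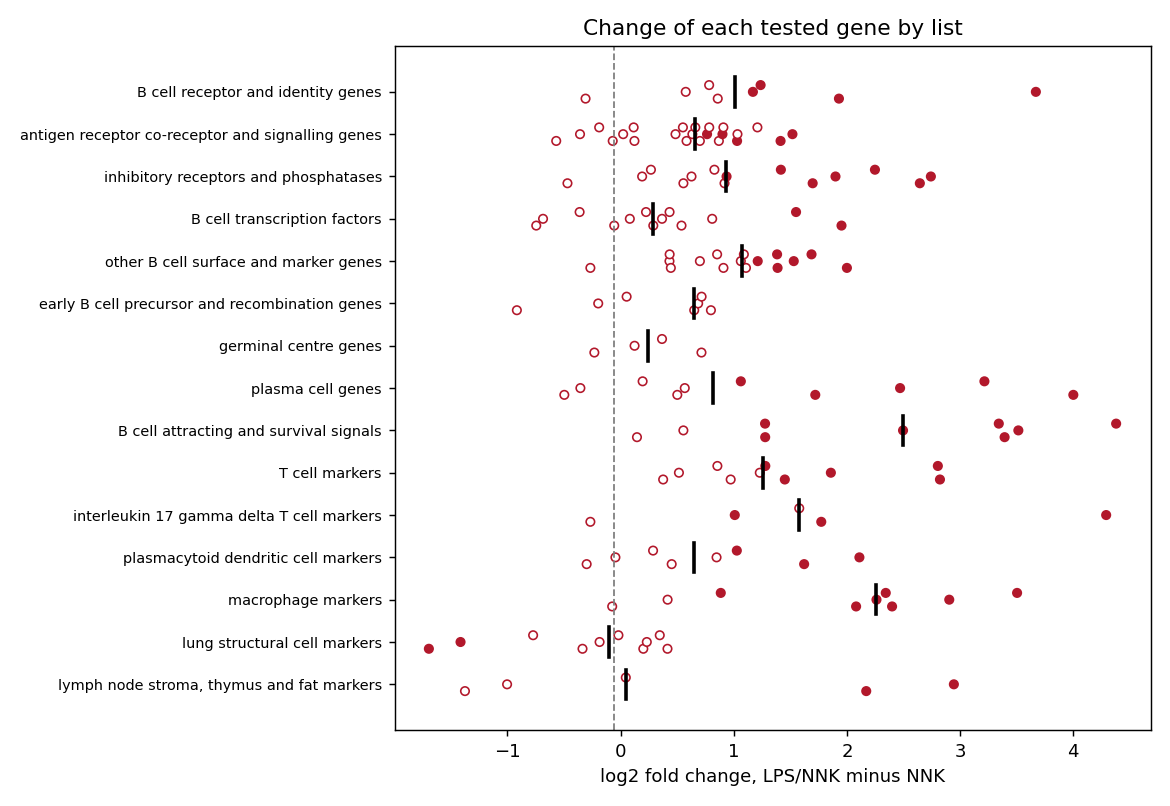
Log2 difference between LPS/NNK and NNK for each tested gene, by gene list (rows); filled points were called, black bars are list medians and the dashed line is the median of all items at -0.06. The medians of the B cell attracting signals (2.50) and of the macrophage markers (2.26) lie to the right of that of the 8 B cell genes (1.01), and that of the lung structural markers is -0.10.

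Of 10 tested genes that mark antibody-secreting plasma cells, the end stage of the B lineage, 5 were higher in LPS/NNK than in NNK and none lower, with a median of 0.82. Jchain, which joins secreted antibody units, read 5.64, 5.63 and 6.17 on the LPS/NNK arrays, 5.97, 6.13 and 6.89 on the LPS arrays, 2.08, 1.59 and 1.76 on the NNK arrays and 0.93, 0.38 and 2.76 on the PBS arrays. Its LPS/NNK arrays exceeded the NNK arrays by 4.0 (SE 0.48, adjusted p = 0.00027). Derl3 (3.22, SE 0.25) and Mzb1 (2.47, SE 0.31), both of the secretory pathway, and Tnfrsf17, the receptor BCMA (1.72, SE 0.37), were higher as well, whereas Sdc1 (-0.35, SE 0.23), Xbp1 (-0.50, SE 0.30) and Prdm1 (0.20, SE 0.28) were not called. The mean level of the 10 genes was 1.49 to 1.81 in LPS/NNK, 2.06 to 2.38 in LPS, 0.31 to 0.41 in NNK and -0.29 to 0.09 in PBS.

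Signals that attract B cells or keep them alive showed the highest list median, 2.50, with 7 of 9 higher and none lower. The 9 genes included the receptors Ccr6, which was called, and Ccr7. Also among the 9 was the chemokine Ccl20. It passed the filter on dim probes only through its LPS and LPS/NNK arrays, so it adds no separate support. Ccl19, a chemokine of lymphoid stroma, differed by 4.38 (SE 0.41), Ltb by 3.34 (SE 0.32) and Lta by 2.50 (SE 0.28), which encode the lymphotoxins of lymphoid tissue formation, and Tnfsf13b, which encodes BAFF, by 1.28 (SE 0.23). The list mean was 1.83 to 1.99 in LPS/NNK, 1.32 to 1.90 in LPS, -0.48 to -0.17 in NNK and -0.58 to 0.24 in PBS.

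Markers of other cells were followed on the same arrays, where 7.92% of all items were called higher in LPS/NNK than in NNK. Of 10 T cell markers 5 were higher in LPS/NNK than in NNK, led by Thy1 (2.82, SE 0.36) and Cd3g (2.80, SE 0.36), and the list mean was -0.08 to 0.12 in LPS/NNK, -0.73 to 0.20 in LPS, -1.51 to -1.28 in NNK and -1.46 to -1.14 in PBS. Cd3e, part of the T cell receptor complex, was well above background on all 12 arrays. Mean levels of Cd3e were -0.59 in LPS/NNK, -0.48 in LPS, -1.56 in NNK and -2.58 in PBS, so LPS/NNK and NNK lay closer together than for Thy1 or Cd3g. On LPS 6, the array lowest for Cd72 among those given LPS, the T cell mean was also the lowest of the 6 arrays given LPS. Other lists went the other way there. The plasma cell mean on LPS 6 (2.38) was the highest of those 6 arrays, and the macrophage mean (2.88) the highest of the LPS arrays. Of 9 macrophage markers 7 were higher, led by C1qc (3.5, SE 0.30) and C1qa (2.90, SE 0.37), with list means of 3.15 to 3.29 in LPS/NNK, 2.70 to 2.88 in LPS, 1.34 to 1.41 in NNK and 0.41 to 1.22 in PBS. All 9 macrophage markers were well above background on every array, and the part of these cells in the Blnk and Cd72 differences was not tested. Of 5 tested markers of interleukin 17 gamma delta T cells 3 were higher, among them Il17a, at least 4.95-fold since no NNK array was well above background for it. Il17a passed the filter on dim probes only through its LPS/NNK arrays, so its call adds no separate support. Il23r and Il17rb of the same list failed that filter.

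Plasmacytoid dendritic cells share some genes with B cells, and 3 of 8 of their markers were higher, led by Bst2 (2.11, SE 0.35), which interferon also induces, and Pacsin1 (1.62, SE 0.28). Their defining marker Siglech was well above background on 1 LPS/NNK array, no LPS array, 2 NNK arrays and all 3 PBS arrays, and differed by -0.30 (SE 0.32) between LPS/NNK and NNK. The list mean was 0.49 to 0.93 in LPS/NNK, 0.12 to 0.30 in LPS, -0.13 to 0.07 in NNK and -0.31 to -0.06 in PBS. Of 5 markers of lymph node stroma, thymus and fat 2 were higher. They were Cd1d1 (2.17, SE 0.33), which B cells and macrophages carry too, and Glycam1 (2.95, SE 0.85), a glycoprotein of high endothelial venules. Glycam1 passed the filter on dim probes only through its LPS and LPS/NNK arrays, so its call adds no separate support. Fat gene Adipoq differed by -1.37 (SE 0.69). None of 10 lung structural markers was higher and 2 were lower, Sftpb (-1.69, SE 0.33) and Scgb1a1 (-1.41, SE 0.29). The share of lymph node or other tissue in the samples was not tested.

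**Figure D4:**
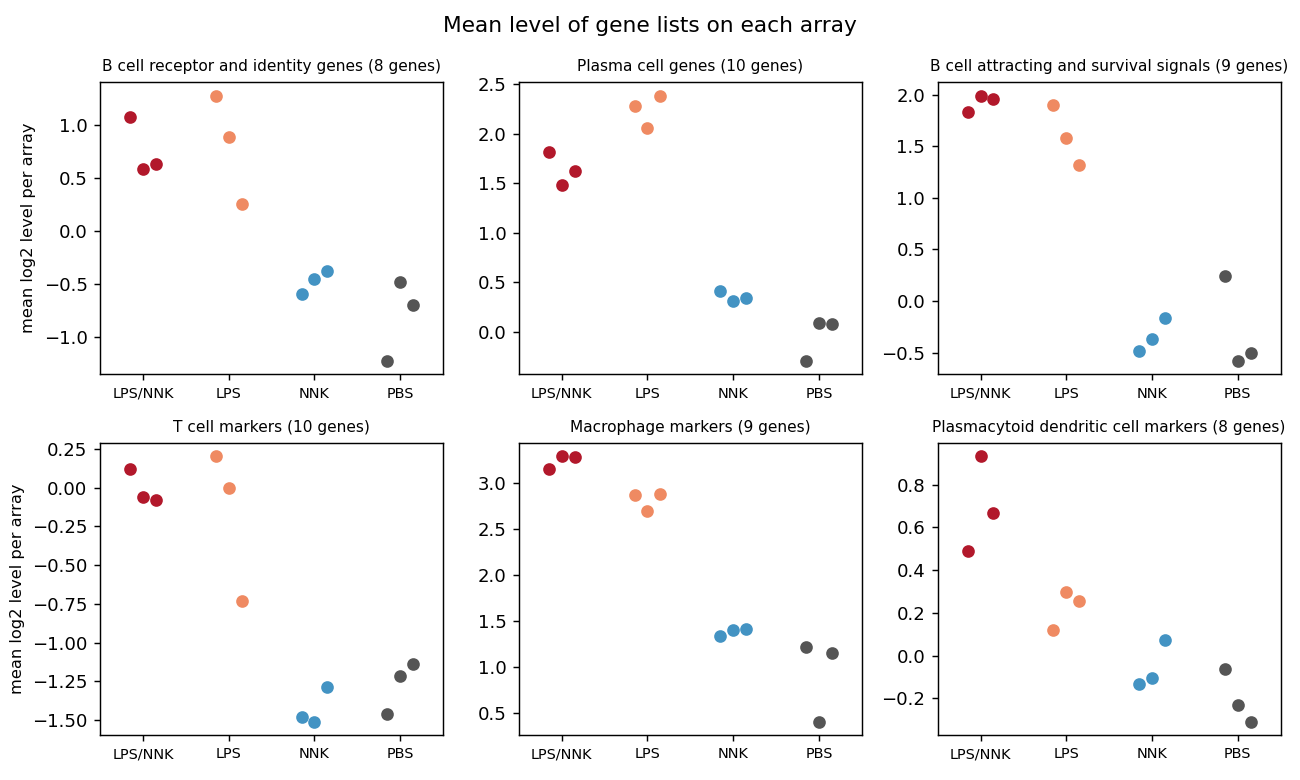
Mean log2 level per array of the 8 tested B cell genes and of 5 other gene lists (vertical axes, their ranges set per panel), for the groups LPS/NNK, LPS, NNK and PBS; each point is 1 array. In each panel the LPS/NNK arrays lie above the NNK arrays, and the mean of the B cell genes was 0.59 to 1.07 in LPS/NNK, 0.25 to 1.28 in LPS, -0.59 to -0.38 in NNK and -1.22 to -0.48 in PBS.

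The B cell genes varied together to different degrees. Over the 9 treated arrays the correlation of each gene with the mean of the other 7 tested genes was highest for Cd72 (r = 0.90), Cd79b (0.87) and Cd22 (0.82) and lowest for Blk (0.22); over all 12 arrays it was highest for Cd79b (0.92) and lowest for Blk (0.43) and Ms4a1 (0.47). These are descriptions over arrays that share their group's differences. The genes whose levels followed the mean of the 8 genes most closely over 12 arrays were Tbc1d10c (r = 0.96), Zcchc18 (0.95), Acap1 (0.94), Slamf7 (0.94) and Ccr6 (0.93), and over the 9 treated arrays C1s1 (0.98), M6pr (0.98), Ifi30 (0.98), Zcchc18 (0.97) and Ccdc69 (0.97). Ccr6 is a chemokine receptor of B cells and interleukin 17 producing T cells, and Slamf7 a surface receptor of plasma cells and natural killer cells. Between LPS/NNK and NNK, Slamf7 differed by 1.98 (SE 0.29) and Ccr6 by 1.28 (SE 0.34), and M6pr, the mannose 6-phosphate receptor, by 0.55 (SE 0.21), which was not called.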

How the data were processed

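Per the file headers the deposited intensity of each spot, the processed signal, was background-subtracted within each of the 12 arrays by Agilent Feature Extraction 10.7.3.1 (10.7 in the labels). The deposited table of the series holds log2 values, made with Partek per the submitters' processing notes; its array medians lay between -3.50 and -2.94. Here outlier and control spots were left out, log2 taken, spots of a probe averaged and the 75th percentile of each array subtracted. That percentile was taken over all non-control probes, with outlier spots kept. Probes entered the fit if all 3 arrays of any group placed them well above background, and the brightest probe stood for its gene, which left 28331 probes and 21853 items. Symbols came from RefSeq accessions (24375 probes). Groups were fitted together in limma 3.58.1 (lmFit, contrasts.fit, eBayes; R 4.3.3, 8 residual and 5.5 prior degrees of freedom) with Benjamini-Hochberg adjustment over all items, for 6 pairs of groups and the interaction. Labels do not say that each array is a separate mouse, so the p-values measure the spread between these arrays.

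The 9 genes and the gene lists were chosen with earlier results of these data known. From each list up to 4 genes with the smallest p in LPS/NNK against NNK are named, with a defining marker of each other cell type and the 5 genes of most similar pattern; further names were chosen after their values were seen. Some genes under these rules are not reported here. "At least" folds set the bright group's mean against the dimmest signal well above background. Alternatives were another background correction (normexp with an offset of 50, on the median spot and background signals, since the files used here give no mean signal), normalization, filter, probe, source, slide and replicate blocks, and leaving out arrays. Figures were drawn with matplotlib 3.10.9 in Python 3.11.15. The number of arrays limits the precision; brightness at the 75th percentile was 183 to 510 in LPS/NNK, 266 to 487 in LPS, 268 to 411 in NNK and 699 to 984 in PBS.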

Additional observations from a re-analysis of the deposited data

Results flagged for a closer look

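The interaction was called for 2 of the 8 genes (25%) by limma with Benjamini-Hochberg adjustment over all items, and for 38.7% of all items. It sets LPS/NNK minus NNK against LPS minus PBS, and by the labels only the second pair is matched for buffer. For Ms4a1 the interaction was 1.21 (adjusted p = 0.0471). For Cd22 it was -1.46 (adjusted p = 0.0169). The PBS arrays enter both values, and PBS 2 had the highest Ms4a1 level of the 12 arrays (2.09). Ms4a1 kept its direction in 23 alternatives and lost its call in 13 of them, with values from 0.90 to 1.84. Cd22 kept its direction in 23 alternatives and lost its call in 3, namely normexp, the run of slides as a block and the fit without PBS 1 and PBS 2.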

How the results depend on the processing

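Across the 8 genes, 7 comparisons and every alternative fitted, 926 values kept their direction and side of the threshold, 69 lost a call, 19 gained one and 34 changed sign. All 34 were uncalled before and after the change. There were 3 arrays per group, and a fixed slide effect was fitted only for groups that share a slide.

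The number of genes called in LPS/NNK against NNK was 4 (with 17.3% of all items called), and 2 with normexp (1.62%). In LPS against NNK it was 3 (6.21% of all items), and 0 with the run of slides as a block (0.68%). In LPS against PBS it was 6 (56.0%), and 3 with that block (35.5%). In NNK against PBS it was 3 (51.5%), then 1 with slide as a fixed effect (30.4%) and 0 without PBS 1 and PBS 2 (19.6%). For the interaction it was 2 (38.7%), then 0 with normexp (0.32%), 4 with cyclic loess (40.3%), 1 without the filter (40.0%), 1 with the run of slides as a block (21.1%), 1 with the replicate block (39.6%) and 0 without PBS 1 and PBS 2 (12.0%). Leaving out 1 array at a time gave 2 to 4 for LPS/NNK against NNK, 2 to 5 for LPS against NNK, 5 to 6 for LPS against PBS, 4 to 6 for LPS/NNK against PBS, 1 to 3 for NNK against PBS, 0 to 0 for LPS/NNK against LPS and 1 to 4 for the interaction, whose 1 came without LPS 1, LPS 5, NNK 2, NNK 3 or LPS/NNK 6. Except where a value shows it, the cause was not tested.

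Arrays of different groups that share a replicate number had correlations of deviations of -0.15 to 0.41. Arrays with unlike numbers were not correlated, so whether the numbers pair the arrays cannot be told from these values. With the replicate number as a block, the interaction of Ms4a1 was 1.46 (adjusted p = 0.0526) and lost its call, and no other gene changed its call.

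Changes of sign were as follows. In LPS/NNK against NNK, Cd79a became -0.054 and Fcrla -0.030 with normexp, and Blk 0.56 without LPS/NNK 3 (-0.89 to 0.56 over arrays left out). In LPS against NNK, Ms4a1 became -0.14 and Fcrla -0.30 with the run of slides as a block, and Blk -0.16 and Fcrla -0.35 with normexp. In LPS against PBS, Ms4a1 became 0.27 without PBS 2 (-0.31 to 0.27 over arrays left out) and 0.055 without PBS 1 and PBS 2, and Fcrla -0.16 with the percentile of probes above background on all arrays, -0.44 with the run of slides as a block, -0.062 without PBS 3 and -0.15 without LPS 1 (-0.15 to 0.40 over arrays left out). In LPS/NNK against PBS, Ms4a1 became -0.013 with quantile normalization and -0.036 with that percentile, and Blk -0.022 without LPS/NNK 2 (-0.022 to 1.44 over arrays left out) and -0.11 without PBS 1 and PBS 2. In NNK against PBS, Cd79b became -0.24 with normexp, -0.056 with quantile normalization and -0.18 with cyclic loess, and with normexp Cd72 became 0.36 and Fcrla 0.73. In LPS/NNK against LPS, Cd79a became 0.44 and Blnk -0.050 with the run of slides as a block. In the interaction, Fcrla became -0.41 with normexp, and Cd79b became 0.38 with normexp, 0.16 with quantile normalization, 0.36 with cyclic loess, 0.15 with that percentile, 0.30 with the run of slides as a block, 0.12 without PBS 1, 0.34 without LPS 1, 0.082 without NNK 5 and 0.042 without LPS/NNK 6 (-0.34 to 0.34 over arrays left out).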
